A study of Mus musculus with 2 samples.

Results

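The genes described here encode beta subunits of the sodium-potassium pump (Atp1b1, Atp1b2 and Atp1b3) and FXYD proteins that bind the pump (Fxyd1, Fxyd5 and Fxyd6). They were chosen by name, as the noncontrol probes of 2 microarrays whose annotated transcript maps to 1 of these symbols, and make up 6 of the 13846 named genes measured in the hearts. One array held left ventricular RNA of H-Bmal1-/- mice, and the other that of their controls. The H-Bmal1-/- mice carried a floxed Bmal1 gene (B6.129S4(Cg)-Arntl tm1Weit/J) and a Myh6-cre transgene, in which the αMHC promoter of cardiomyocytes drives Cre recombinase, and the controls were littermates with the floxed gene and no Cre. A group with Cre and no floxed gene was not analysed here, so the deletion and the presence of Cre cannot be told apart. All animals were males aged 12 weeks, and tissue was taken 2 h after lights on. With 1 time of day, a change of level and a shift of a daily rhythm cannot be told apart, a limit the paper also names. At this age the paper reports heavier hearts for body weight and weaker contraction in H-Bmal1-/- mice. The part of this heart state in the ratios was not tested. RNA of 6 animals per genotype was pooled before labeling, so that each genotype had 1 array, no spread between animals could be measured and no test was possible. In pooled tissue, fewer cells of a type and less RNA per cell cannot be told apart.

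The sodium-potassium pump moves sodium out of the cell and potassium in at the cost of ATP, and in cardiomyocytes it sets the sodium gradient that the sodium-calcium exchanger uses to remove calcium. Its alpha subunit does the transport and binds cardiac glycosides such as digoxin. The beta subunit is a glycoprotein that crosses the membrane once and is needed for the alpha subunit to fold and reach the cell surface. FXYD proteins are small membrane proteins that bind the assembled pump and change its affinity for ions. In the heart, phospholemman, the product of Fxyd1, holds the pump back until protein kinase A or C phosphorylates it.

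Fxyd6 and Atp1b1 were the members higher in H-Bmal1-/- hearts by at least 1.5-fold, the size rule used here in place of a test, and Fxyd5 came next. Fxyd1 and Atp1b3 had ratios closer to 1, and Atp1b2 was the member with a lower value. Thus 2 of 6 members passed 1.5-fold upward, where 6.15% of all measured genes did, and 0 of 6 passed it downward, where 5.85% of all measured genes did. The log2 ratio of H-Bmal1-/- to control was above 0 for 5 of 6 members, against 48.3% of all measured genes. Its median was 0.31 over the members and -0.01 over all measured genes. Every ratio was taken after each array's signals were divided by their 75th percentile, 190.1 in H-Bmal1-/- and 171.1 in control hearts. Without that division every log2 ratio lies 0.15 higher. Each member was read by 1 probe printed once, and all 6 probes were well above background on both arrays. The only error at hand for the members themselves is therefore that of the scanner software's error model, 10.0% of each of these signals. It gives an error of 0.20 on each member's log2 ratio and leaves out the spread between animals. Between repeat spots of other probes, the log2 ratio had a median SD of 0.07.

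**Figure D1:**
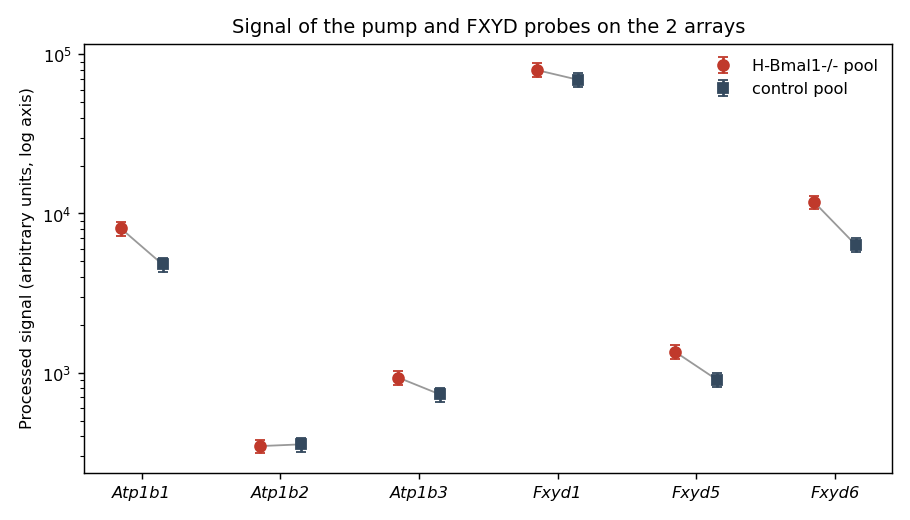
Processed signal of each member's probe (arbitrary units, log axis) in the H-Bmal1-/- pool (red circles) and in the control pool (dark squares), before scaling between arrays. Bars are the error of the scanner software's error model, and heights of different probes cannot be set against each other. The bars do not overlap for Fxyd6, Atp1b1, Fxyd5 and, by a smaller margin, Atp1b3. The H-Bmal1-/- array was the brighter by 0.15 in log2, which is not removed here. After scaling, the log2 ratio of Atp1b3, 0.20, was within its error of 0.20. For Atp1b2 the symbols are nearly level, at 345 and 354.

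Among the beta subunits, Atp1b1 encodes the main beta subunit of the heart. Its signal was 8047 ± 805 in H-Bmal1-/- and 4784 ± 478 in control hearts (error of the error model, 1 array each). After scaling it was 1.51-fold higher in H-Bmal1-/- hearts, a log2 ratio of 0.60, or 2.93 times its error. Of all measured genes, 5.94% had a ratio as high or higher. Signal level matters to this comparison, since dim probes scatter more, and among the 1090 genes whose mean log2 signal lay within 1 of that of Atp1b1 the share was 3.58%. The ratio of Atp1b1 lay close to the limit of 1.5-fold, and under scaling to spike-in probes it was below it, at 0.57.

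Atp1b3, which encodes a beta subunit found in many tissues, had signals of 931 ± 93.1 in H-Bmal1-/- and 730 ± 73.1 in control hearts. Its log2 ratio of 0.20 was about as large as its error of 0.20, and 22.9% of measured genes were as high or higher. Atp1b2 encodes the beta subunit known from glia as an adhesion molecule. It had 345 ± 34.6 in H-Bmal1-/- and 354 ± 35.5 in control hearts, and its log2 ratio was -0.19, with an error of 0.20. Of measured genes, 25.9% had a ratio as low or lower. Neither gene thus differed between the arrays by more than the error of the error model. Both ratios were larger in size than the median SD of 0.07 between repeat spots of other probes. The beta subunits spanned -0.19 to 0.60 with a median of 0.20.

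Fxyd6 encodes phosphohippolin, a pump modulator first described in rat brain. It had the highest ratio of the members. Its signal was 11784 ± 1178 in H-Bmal1-/- and 6346 ± 635 in control hearts, 1.67-fold higher after scaling, with a log2 ratio of 0.74, or 3.63 times its error. Of all measured genes, 4.12% were as high or higher, and of the 839 genes of like signal 1.91% were. It stayed past 1.5-fold under all 12 ways of processing the arrays, whereas Atp1b1 passed in 11 of 12. The share of all measured genes past it upward was 2.67% to 9.66% across these ways. The probe filters, the probe summaries and the value table among these could not move either gene.

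Fxyd5 encodes dysadherin, a heavily glycosylated FXYD protein linked to weaker cell adhesion. Its signal was 1346 ± 135 in H-Bmal1-/- and 901 ± 90.1 in control hearts. The scaled fold was 1.35, short of the 1.5-fold rule, and its log2 ratio of 0.43 was 2.1 times its error. A ratio as high or higher was found in 9.79% of all measured genes and in 5.61% of the 2797 genes of like signal. Fxyd1 had by contrast 79643 ± 7964 in H-Bmal1-/- and 69111 ± 6911 in control hearts, a log2 ratio of 0.05. This difference was 0.261 times its error, and 40.6% of measured genes were as high or higher. In the order of protein-coding genes on chromosome 7, Fxyd7 stands between Fxyd5 and Fxyd1, so that the member with the third ratio and the member with the fifth lie with 1 gene between them. The 3 FXYD members spanned 0.05 to 0.74, with a median of 0.43.

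**Figure D2:**
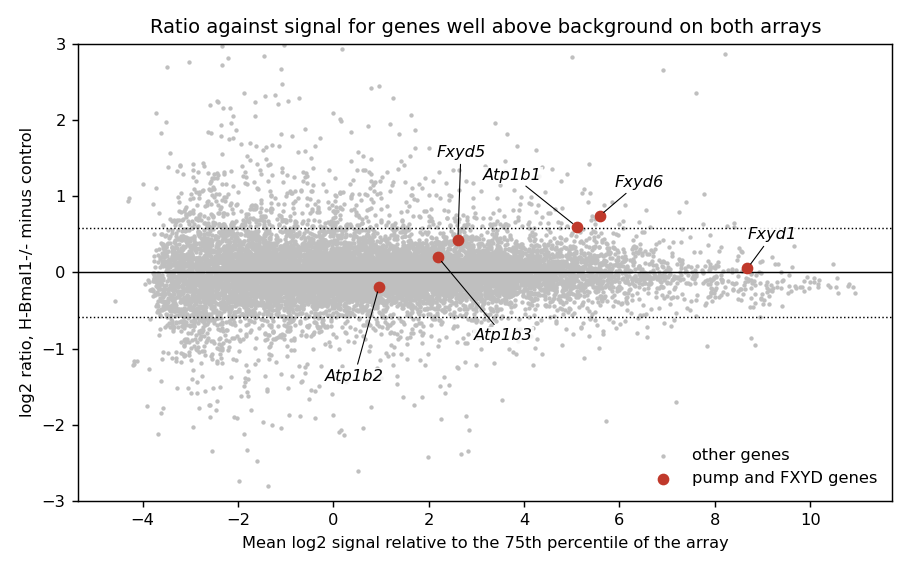
The log2 ratio of H-Bmal1-/- to control against the mean scaled log2 signal, for genes well above background on both arrays (grey) and for the 6 members (red). Dotted lines mark 1.5-fold, and 7 genes lie outside the vertical axis. Fxyd6 at 0.74 and Atp1b1 at 0.60 lie above the upper line where 3.67% of genes of like signal to Atp1b1 and 3.34% of those of like signal to Fxyd6 do so, whereas Fxyd1 and Atp1b2 lie within the bulk.

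In descending order the log2 ratios ran Fxyd6, Atp1b1, Fxyd5, Atp1b3, Fxyd1 and Atp1b2. No neighbours in this order differed by more than 2 combined errors. Of all 15 pairs, 4 did, namely Fxyd6 with Fxyd1 (a difference of 0.69), Fxyd6 with Atp1b2 (0.93), Atp1b1 with Atp1b2 (0.79) and Fxyd5 with Atp1b2 (0.62). The combined error was 0.29 for every pair, so 2 combined errors are a fixed limit of size and no test. They compare changes between the arrays and not levels of the genes.

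BMAL1 pairs with CLOCK or NPAS2 and binds E-boxes, and the members at 1.5-fold or more are shown with the member whose promoter holds an E-box. The windows are the 250 bases before an annotated start in RefSeq for GRCm38.p6, written 5′ to 3′ on the strand of the gene, and capitals mark the E-box letters. The table held 6 windows for 5 of the 6 members.
Atp1b1, chr1:164458356-164458605, minus strand: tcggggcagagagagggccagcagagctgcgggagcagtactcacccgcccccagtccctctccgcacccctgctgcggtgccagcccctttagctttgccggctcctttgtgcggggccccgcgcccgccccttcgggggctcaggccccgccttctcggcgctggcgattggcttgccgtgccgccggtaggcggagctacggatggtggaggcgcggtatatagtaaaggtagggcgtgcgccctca
Fxyd6, chr9:45369935-45370184, plus strand: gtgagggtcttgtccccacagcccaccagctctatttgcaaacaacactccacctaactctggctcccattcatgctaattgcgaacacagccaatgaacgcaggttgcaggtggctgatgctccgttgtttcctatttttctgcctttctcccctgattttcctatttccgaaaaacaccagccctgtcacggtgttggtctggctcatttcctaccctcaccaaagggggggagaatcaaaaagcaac
Atp1b3, chr9:96363716-96363965, minus strand: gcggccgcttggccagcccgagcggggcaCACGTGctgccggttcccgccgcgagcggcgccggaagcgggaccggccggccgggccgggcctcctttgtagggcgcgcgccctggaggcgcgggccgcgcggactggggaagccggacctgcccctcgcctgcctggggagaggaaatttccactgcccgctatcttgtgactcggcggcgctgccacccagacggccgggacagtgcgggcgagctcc
The E-box letters CACGTG, which read the same on both strands, were in 1 of the 6 windows, 221 bases before that start of Atp1b3. The other start of Atp1b3 had none, nor had Atp1b1, Fxyd6, Fxyd5 or Fxyd1. Of all 32851 RefSeq promoter windows of this length, 6.02% held the letters. The D-box letters TTATGTAA, searched on both strands, were in 0 of the 6 windows and in 0.819% of all promoter windows. A match of letters is a description and shows no binding, and the gene with the match was not among those at 1.5-fold.

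Another FXYD gene was measured with more than 1 probe. Fxyd2, whose product is the gamma subunit of the kidney pump, had probes at -0.32 and -0.26 and a mean of -0.29. Atp1b4, Fxyd3, Fxyd4 and Fxyd7 were not well above background on either array, with signals of 2.3 to 9.63 in H-Bmal1-/- and 2.32 to 9.15 in control hearts, and Atp1a4 was not well above background either.

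The list of anchors and kinases that act on the pump also held phosphatases, nuclear receptors and a ubiquitin ligase. It had a median log2 ratio of -0.05 over 20 measured genes, with 8 above 0. Of these 20, 1 was at least 1.5-fold higher and 0 were lower by that much. Of all measured genes, 48.3% were above 0, 6.15% at least 1.5-fold higher and 5.85% lower by that much. The gene past the rule was Prkar1a, the regulatory subunit that keeps protein kinase A inactive without cAMP, at 1.88-fold, with its 2 probes at 0.69 and 1.14. Prkcd, a protein kinase C isoform, followed at 0.49. The lowest were Prkce, another protein kinase C isoform, at -0.53, and Nedd4l, a ubiquitin ligase of sodium channels, at -0.42.

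The list of transporters that share the sodium and potassium gradients also held calcium pumps, an anion exchanger and scaffolds. It had a median of -0.07 over 22 measured genes, with 9 above 0. Of these 22, 2 were at least 1.5-fold higher and 0 were lower by that much. The shares over all measured genes were 48.3% above 0, 6.15% higher and 5.85% lower. Slc8a2, a sodium-calcium exchanger known from brain, was 2.30-fold higher, with signals of 111 in H-Bmal1-/- and 43.5 in control hearts. Slc20a1, a sodium-phosphate carrier, averaged 1.61-fold higher, although its 2 probes differed, at 0.21 and 1.17. At the low end were Slc9a3r1, a scaffold of the sodium-proton exchangers, at -0.44 and Slc24a3, a potassium-dependent sodium-calcium exchanger, at -0.36.

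Single-span regulators of other pumps and channels, which like FXYD proteins are small membrane partners, had a median of 0.16 over 8 measured genes. Of these 8, 6 were above 0, 2 at least 1.5-fold higher and 0 lower by that much. The shares over all measured genes were 48.3%, 6.15% and 5.85%. With a normexp background correction the median of the 8 was -0.03. Sln, the gene of the calcium pump inhibitor sarcolipin, had a signal of 33.7 in H-Bmal1-/- hearts and was not well above background in control hearts, at 2.94. It was at least 2.75-fold higher, the fold being set against the lowest signal well above background. Pln, the gene of phospholamban, was lowest at -0.41, with Scn4b, a sodium channel beta subunit, at -0.41.

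Genes of beta subunit folding and N-glycan processing had a median of 0.00 over 17 measured genes. Of these 17, 9 were above 0, 2 at least 1.5-fold higher and 0 lower by that much. The shares over all measured genes were 48.3%, 6.15% and 5.85%. The list also held a lectin, Lgals3, which is not a gene of folding or processing. It encodes galectin-3, also made by macrophages and fibroblasts, and was 3.09-fold higher, with signals of 1331 in H-Bmal1-/- and 388 in control hearts. Man1a, a mannosidase of the Golgi, was 1.57-fold higher, with probes at 0.29 and 1.02. Hspa5, the chaperone BiP, was lowest at -0.48, followed by Dad1, a subunit of the oligosaccharyltransferase, at -0.27, whose probes lay at -0.66 and 0.11.

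**Figure D3:**
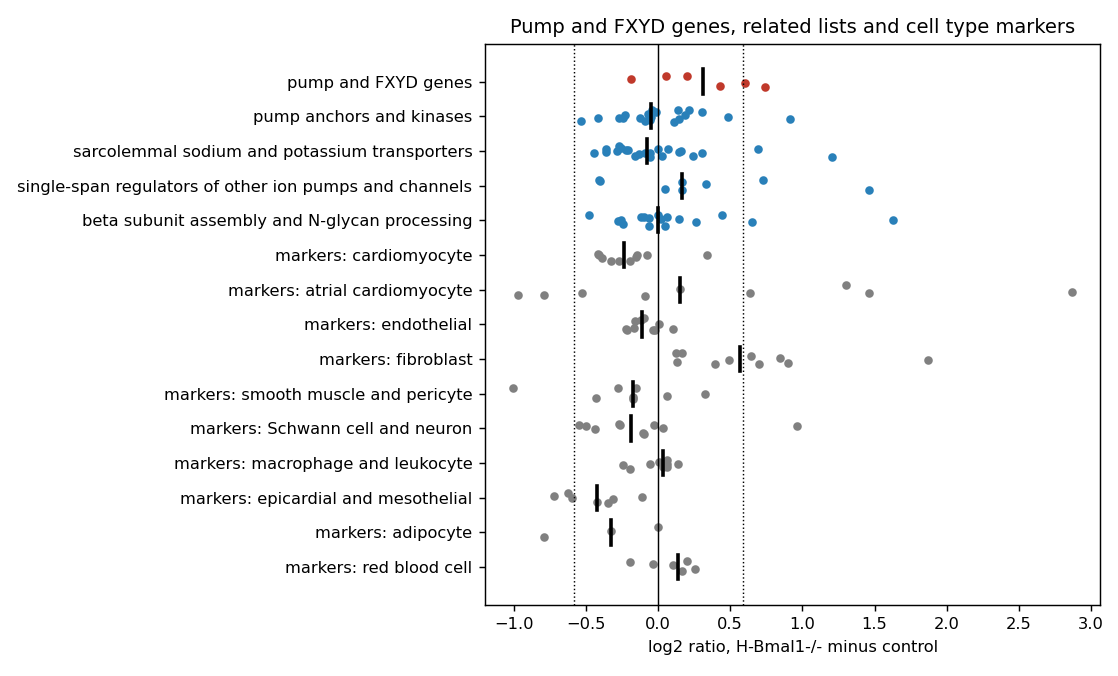
The log2 ratio of H-Bmal1-/- to control for each measured gene of the lists (points), with the list's median (black bar) and dotted lines at 1.5-fold. The median of the members (red), 0.31, lies above the medians of the 4 related lists (blue). Fxyd2, at -0.29, is not among the members and is not shown. Among the marker lists (grey) the fibroblast list has the highest median, 0.57.

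The labelled tissue was heart, and all 10 cardiomyocyte markers were well above background. Their median log2 ratio was -0.23, with 9 of 10 below 0 and a summed scaled level of 7637 in H-Bmal1-/- and 8522 in control hearts. That median was -0.11 under quantile normalization and -0.08 without scaling. Fibroblast markers moved the other way. All 10 were above 0 and 5 were at least 1.5-fold higher, where 48.3% and 6.15% of all measured genes were. They had a median of 0.57 and a summed level of 451 in H-Bmal1-/- and 303 in control hearts. Medians were 0.15 for atrial cardiomyocytes (Bmp10 not well above background), -0.11 for endothelium, -0.18 for smooth muscle and pericytes and -0.19 for Schwann cells and neurons (Gfap not well above background). Macrophages and leukocytes had 0.03 (Cd79a not well above background), epicardium -0.42, adipocytes -0.32 (Adipoq, Lep, Retn and Cidec not well above background) and red blood cells 0.14. The part of the fibroblast and cardiomyocyte markers in the ratios of Fxyd6, Atp1b1 and Fxyd5 was not tested. The targeted gene, listed as Arntl, had a signal of 328 in H-Bmal1-/- and 513 in control hearts, a log2 ratio of -0.80. No source used here says if its 1 probe lies in the deleted part, and heart tissue holds cells in which the αMHC promoter is not active.

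**Figure D4:**
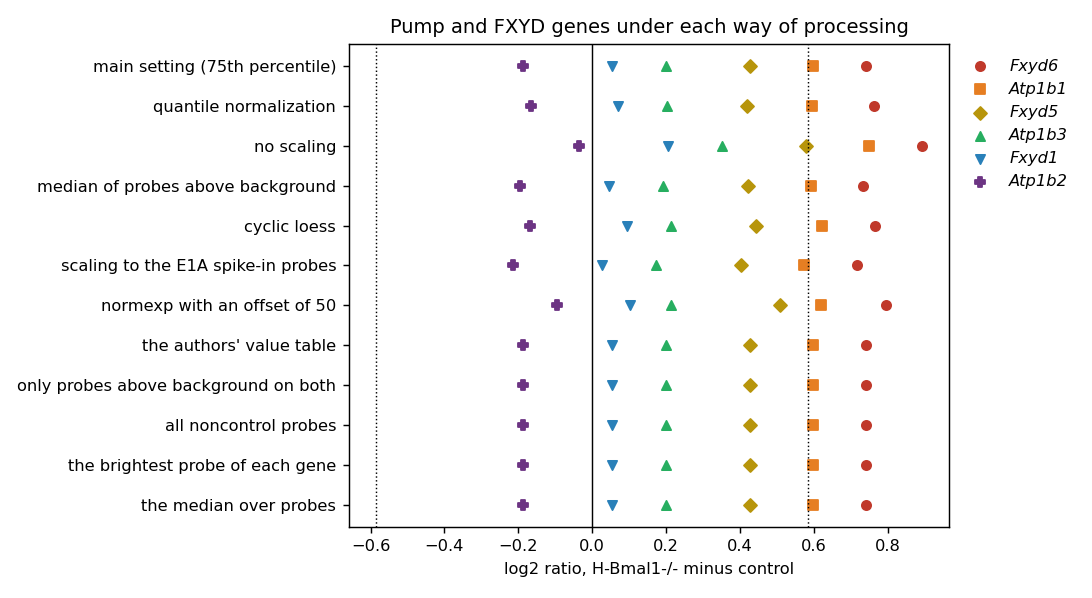
The log2 ratio of H-Bmal1-/- to control for each member under 12 ways of processing the arrays (rows), with dotted lines at 1.5-fold. Fxyd6 stays right of the upper line in all 12, Atp1b1 in 11, and Atp1b2 stays below 0 in all 12. Of all measured genes, 2.67% to 9.66% are past the upper line, depending on the row. The rows for the probe filters, the probe summaries and the value table could not move a member.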

How the data were processed

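Left ventricular RNA, pooled from 6 mice per genotype, was labeled with Cy3 and hybridized to 1-color Agilent SurePrint G3 Mouse arrays, 1 per genotype. The deposited scanner files hold intensity values, which the authors obtained with Feature Extraction (version 10.5.1.1 per the labels, 10.10.1.1 per the file headers) as background-subtracted processed signals. The deposited value table holds the same intensities times 1 factor per array, with medians of 64.0 in H-Bmal1-/- and 67.2 in control hearts. The rule behind the factor is not stated, and the table served as an alternative. Other deposited columns used were flags of 0 or 1.

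Of 59305 noncontrol spots, 269 flagged as outliers in either file were left out and 0 were saturated. Well above background were 50.0% of spots in H-Bmal1-/- and 49.4% in control hearts. The log2 processed signal minus the array's 75th percentile was averaged over spots of a probe, and then over those probes of a gene that were well above background on either array. A gene well above background on 1 array only (472 in H-Bmal1-/-, 324 in control) was given a bounded ratio, set against the lowest signal well above background. Of 55676 probes, 26759 had a symbol through RefSeq accessions. Ratios are H-Bmal1-/- minus control. The median SD of the log2 ratio over spots of 1 probe was 0.07 (247 probes with at least 8 spots), which covers technical error only, and the number of arrays limits the precision. No test was run.

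Members, lists and rules were chosen with earlier results of these data known. Named were all members, the other measured pump and FXYD genes, and in each related list the genes past 1.5-fold or otherwise the highest 2 and lowest 2. Some genes that this rule names are not reported here. Alternatives were quantile, cyclic loess, median, spike-in (7 E1A probes) and no scaling, normexp (offset 50), the value table, probe filters, probe summaries and folds of 1.25 and 2. Python 3.11.15, pandas 2.3.3, R 4.3.3 and limma 3.58.1 were used. Array coordinates (mm9) were not used. Protein sequences were not used here.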

Additional observations from a re-analysis of the deposited data

How the results depend on the processing

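No member changed sign under any of 12 settings, of which the probe filters, the probe summaries and the value table could not move a gene with 1 probe. The log2 ratios ranged over 0.72 to 0.89 for Fxyd6, 0.57 to 0.75 for Atp1b1, 0.40 to 0.58 for Fxyd5, 0.17 to 0.35 for Atp1b3, 0.03 to 0.20 for Fxyd1 and -0.21 to -0.04 for Atp1b2. The median over the members was 0.47 without scaling, where the median over all measured genes was 0.14. The count of members at least 1.5-fold higher was 1 with scaling to the spike-in probes, where Atp1b1 had 0.57, and 0 at a limit of 2-fold. With the spike-in scaling 5.72% of all measured genes passed 1.5-fold upward, and their share at 2-fold was not counted. The count of members at least 1.5-fold lower was 0 throughout. Of all measured genes, 1.79% to 7.75% were lower by that much across the 12 settings. With normexp, 369 of the measured genes passed 1.5-fold upward and 248 downward, against 852 and 810 with the main processing, since an offset of 50 pulls dim signals together. Without scaling the split was 1337 higher and 530 lower. Without scaling, the medians of the anchor and kinase list (0.10), the transporter list (0.08) and the endothelial markers (0.04) were above 0. No paired analysis was possible because each genotype had 1 array, and no array could be left out for the same reason.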
